A study of Mus musculus with 451 samples.

Results

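Collagen hydroxylases and lysyl oxidases are described here through 10 genes, taken as the rows of Lox, Loxl1, Loxl2, Loxl3, Plod1, Plod2, Plod3, P4ha1, P4ha2 and P4ha3 among the 48795 symbols of a count table. Reads were present for 25841 of these symbols. The table held 451 single tail tendon cells from C57BL/6 mice aged 4 weeks, caught on a Fluidigm C1 high-throughput chip, with 227 wild-type (WT) cells and 224 cells of Mkx-/- mice. Mkx encodes Mohawk, a transcription factor of tendon. No other allele and no agent is given for either genotype. Neither mice nor chips are named in the labels, so each genotype counts as 1 sample, genotype and preparation cannot be told apart, and no test between genotypes was possible. The intervals given are exact 95% intervals that cover counting error only, and reads were not counted by molecule.

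These enzymes act on collagen in sequence. Prolyl 4-hydroxylases (P4ha genes encode the catalytic alpha subunits) hydroxylate proline in the new chains inside the endoplasmic reticulum, which lets the triple helix hold at body temperature. Lysyl hydroxylases (Plod genes) hydroxylate lysine there, with Plod1 acting mainly in the helix and Plod2 in the telopeptides, and so set which cross-links can form. Lysyl oxidases (Lox genes) are secreted, depend on copper, and convert lysine and hydroxylysine to the aldehydes from which the cross-links of collagen and elastin arise in the matrix.

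Cells were grouped by expression into 3 clusters. The TPC-like cluster, named for tendon progenitor markers such as Cd44, Thy1 and Ly6a, took in 45.8% of WT and 43.3% of Mkx-/- cells. The TC-like cluster, named for tenocyte markers such as Col1a1, Tnmd and Fmod, numbered 74 WT and 81 Mkx-/- cells. The remaining cells, 49 WT and 46 Mkx-/-, led for Itm2a and Lgals3, rest on only these 2 markers and are called cluster 3. Lox, P4ha1 and P4ha2 were among the genes used to cluster, so levels by cluster are a description. Depth was 13630536 reads in WT and 14145394 in Mkx-/- cells, with a median per cell of 51788 and 56121. TC-like cells were the deepest, with a median of 82854 reads in WT and 72866 in Mkx-/-. Mkx itself was at 33.8 CPM in WT (461 reads) and at 15.5 in Mkx-/- cells (log2 ratio -1.13), so the targeted gene was lower but still had reads. The deleted stretch is not given in the sources used here. The 10 enzyme genes together took 0.263% of reads in WT and 0.242% in Mkx-/- cells.

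Promoter sequences are shown for the 3 prolyl 4-hydroxylase genes, because this family had a promoter at hand for every member and its members differed in their order across clusters. They are from RefSeq on GRCm38.p6, run 250 bases before to 50 bases after the start of the gene, and are written 5′ to 3′ on the strand of the gene. Capitals mark ACGTG and GCGTG, the core letters of the hypoxia response element, on either strand, so that CACGT and CACGC are their reverse. P4ha1 lies at chr10:59323046-59323345 (+), P4ha2 at chr11:54100674-54100973 (+) and P4ha3 at chr7:100285270-100285569 (+).
P4ha1: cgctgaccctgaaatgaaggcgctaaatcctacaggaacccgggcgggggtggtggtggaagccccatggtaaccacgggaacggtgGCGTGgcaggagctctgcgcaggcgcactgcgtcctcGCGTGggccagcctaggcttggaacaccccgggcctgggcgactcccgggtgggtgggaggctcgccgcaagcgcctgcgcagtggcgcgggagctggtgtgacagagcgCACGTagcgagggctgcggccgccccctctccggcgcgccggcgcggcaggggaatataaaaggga
P4ha2: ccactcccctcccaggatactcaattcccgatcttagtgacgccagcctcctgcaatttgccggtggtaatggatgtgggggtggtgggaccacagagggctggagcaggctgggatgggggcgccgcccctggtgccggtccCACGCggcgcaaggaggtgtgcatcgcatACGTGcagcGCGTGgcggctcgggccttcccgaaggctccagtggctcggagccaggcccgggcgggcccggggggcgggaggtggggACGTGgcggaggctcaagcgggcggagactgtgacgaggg
P4ha3: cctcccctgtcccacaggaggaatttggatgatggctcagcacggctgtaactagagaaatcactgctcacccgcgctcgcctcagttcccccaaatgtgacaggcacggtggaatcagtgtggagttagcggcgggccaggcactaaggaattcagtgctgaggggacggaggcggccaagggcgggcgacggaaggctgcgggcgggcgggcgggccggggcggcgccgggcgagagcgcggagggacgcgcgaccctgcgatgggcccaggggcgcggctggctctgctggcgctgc
P4ha1 had 3 of these motifs in its window, P4ha2 had 4 and P4ha3 had 0. Of all 32851 promoters of the same length, 19.6% held ACGTG, 32.4% held GCGTG and 43.8% held either. Promoters were at hand for 5 of the 10 genes, and of the others, Plod1 had 2 motifs and Plod3 had 4. A match is a description of letters, not of a bound site.

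In WT mice each enzyme family had a gene that was highest in TC-like cells and a gene that was lowest there. A lower level in TC-like than in TPC-like cells was common among all genes, so it is not particular to these enzymes. In WT, Lox, Plod1, P4ha1 and Loxl3 were over 1.5-fold higher in TC-like than in TPC-like cells, and Loxl1, Plod2, P4ha2 and P4ha3 were over 1.5-fold lower. Of the 9 genes with at least 100 reads in this comparison (all but Loxl3), 3 were higher, against 10.7% of all such genes, and 4 were lower, against 53.9%. In Mkx-/- cells Plod2 changed sides, and 5 of 10 were higher in TC-like cells against 12.3% of all genes, while 3 were lower against 42.5%. The typical background gene was itself lower in TC-like cells, with a median log2 difference of -0.67 in WT and -0.43 in Mkx-/- mice. Of the 6351780 reads of WT TC-like cells, Col1a1 had 701499, Col1a2 1003272 and Sparc 257856. Their part in this shift was not tested. The clusters were built from the same cells, so the shares and medians are given without a test.

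**Figure D1:**
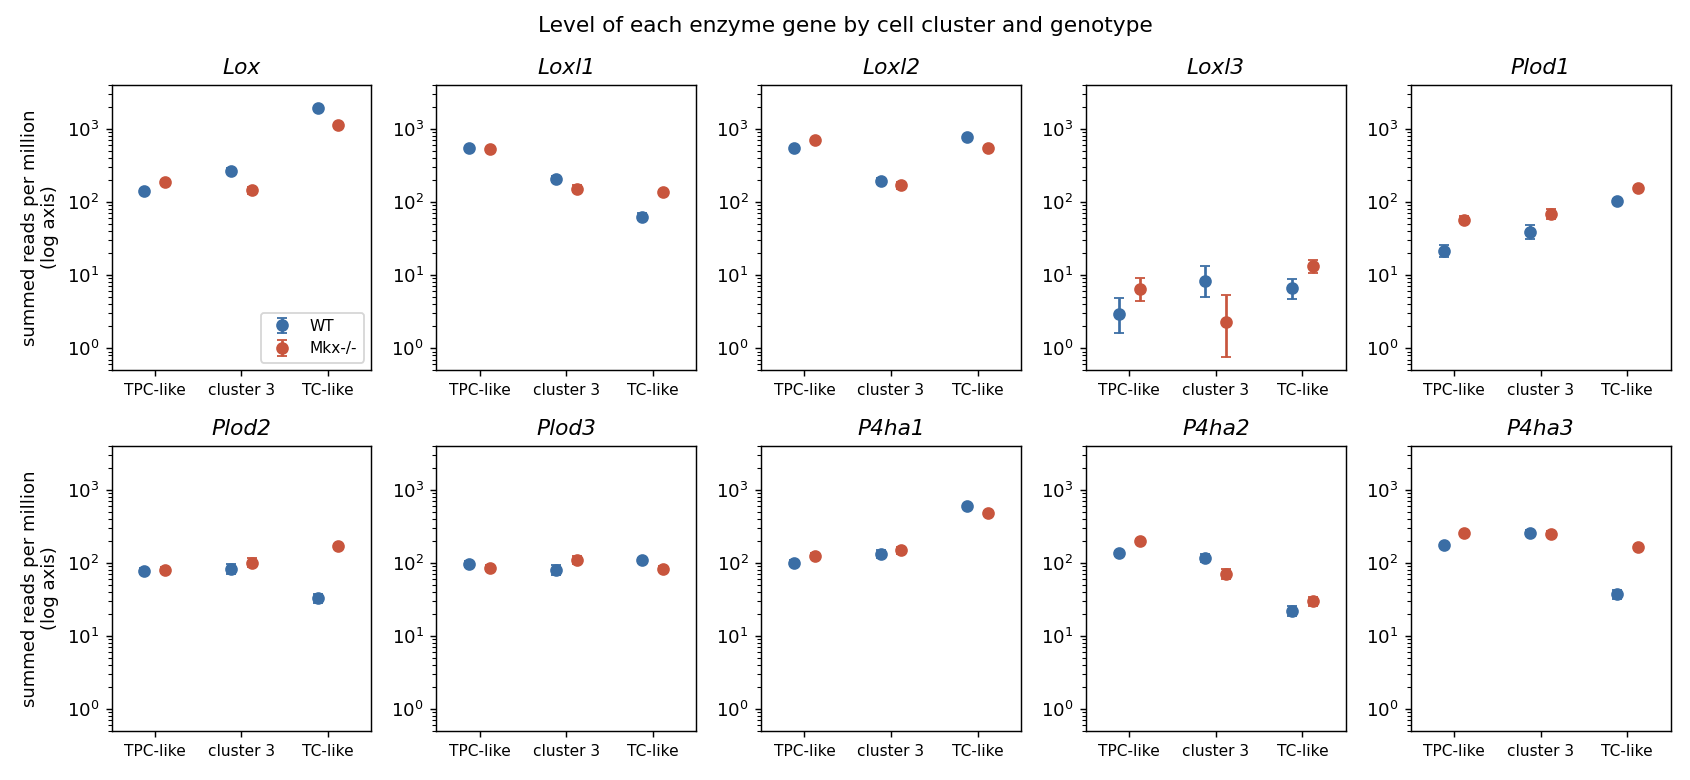
Summed CPM of each enzyme gene (log axis) by cluster in cells of WT (blue) and Mkx-/- (red) mice, with exact 95% Poisson intervals. Lox, Plod1 and P4ha1 are highest in TC-like cells of both genotypes, and the WT TC-like points of Loxl1, Plod2 and P4ha3 are the lowest of their panels.

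Lox, the main collagen cross-linking oxidase, had the steepest rise from progenitor-like to tenocyte-like cells. In WT its level, in counts per 1000000 reads (CPM), was 141.6 in TPC-like cells (95% interval 131.5 to 152.3), 268 in cluster 3 and 1930 in TC-like cells (1896 to 1964), a log2 difference of 3.77 between the last and the first. All WT TC-like cells had a Lox read, with values per cell from 419 to 4367 CPM and a median of 1811. In TC-like Mkx-/- cells the summed level was 1135 (1110 to 1161), and the values per cell ran from 0 to 4123 with a median of 965. The cells of both genotypes overlapped, but the median of Mkx-/- cells was lower. The log2 ratio of Mkx-/- to WT in TC-like cells was -0.77 (-0.81 to -0.72).

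In TPC-like cells the Lox ratio had the other sign, 0.39 (0.25 to 0.54), although 22.3% of the Lox reads of Mkx-/- TPC-like cells came from 1 cell. Without the leading cell of each genotype the ratio was 0.13, and the median cell was lower in Mkx-/- (63.2 CPM) than in WT (75.7). Cluster 3 had a ratio of -0.88 (-1.08 to -0.68). The levels in TPC-like WT and cluster 3 Mkx-/- cells had overlapping intervals, while the other levels of Lox were further apart than their intervals.

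Loxl1, which acts mainly on elastin (chr9:58135530-58161019, mm9), had the reverse order. Its summed level was 547 CPM in TPC-like WT cells (527 to 568), 207.5 in cluster 3 and 63.3 in TC-like cells (57.3 to 69.8). TC-like Mkx-/- cells had 135.4 CPM (126.9 to 144.3), a log2 ratio to WT of 1.10 (0.93 to 1.27). A Loxl1 read was seen in 43.2% of WT (31.8% to 55.3%) and 70.4% of Mkx-/- TC-like cells (59.2% to 80.01%), and the median cell moved from 0 to 69.9 CPM. With each cell thinned to 20000 reads the shares were 31.1% and 60.5%. TPC-like cells differed little between genotypes, with a log2 ratio of -0.06 (-0.14 to 0.01), and the level in TC-like Mkx-/- cells overlapped only that of cluster 3 Mkx-/- cells, at 151.1.

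Loxl2, which also oxidizes basement membrane collagen (chr14:70008978-70095640), was seen in most cells of every cluster. WT cells had 546 CPM when TPC-like and 774 when TC-like, and in Mkx-/- cells the order was reversed, at 716 and 556. Put as TC-like over TPC-like, the log2 difference in WT was 0.51 (0.44 to 0.57), and that in Mkx-/- cells was -0.36 (-0.43 to -0.30). An RNA gene on the opposite strand, Gm16867, overlaps the locus but shares 0 exon bases.

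Loxl3, which is needed for palate and spine formation (chr6:82984167-83002556), was close to the limit of detection. Its level was 5.50 CPM in WT, from 75 reads, against 9.12 in Mkx-/- cells, and a read was seen in 7.05% and 12.1% of cells. In TC-like WT cells 52.4% of its 42 reads came from 1 cell. The exons share 535 bases with those of Htra2 on the opposite strand, and the strand setting of the counting is not stated in the sources used here, so reads of the pair cannot be told apart.

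Plod2, the lysyl hydroxylase of telopeptides (chr9:92437061-92503266), had the largest ratio of the 10 genes in TC-like cells. Its summed level there was 32.7 CPM in WT (28.4 to 37.5) against 170.8 in Mkx-/- cells (161.2 to 180.8), a log2 ratio of 2.38 (2.17 to 2.60) or 5.22-fold. Values per cell ran from 0 to 294 with a median of 0 in WT, and from 0 to 1351 with a median of 55.7 in Mkx-/- cells. The ranges overlapped, and the highest Mkx-/- cells lay above any WT cell of the cluster. A read was seen in 29.7% of WT (19.7% to 41.5%) and 72.8% of Mkx-/- TC-like cells (61.8% to 82.1%), and in 18.9% and 56.8% after thinning. The leading cell held 9.50% of the Mkx-/- reads, and the ratio without the leading cells was 2.57.

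Outside TC-like cells the summed level of Plod2 differed less between genotypes. TPC-like cells had 77.3 CPM in WT and 79.6 in Mkx-/- (log2 ratio 0.04, -0.16 to 0.25), and cluster 3 had 82.4 and 100.3 (0.28, -0.01 to 0.58). The cluster 3 ratio depended on the cells taken in, at 1.07 when clustered in 10 dimensions and -0.34 over cells with at least 2500 genes. The share of TPC-like cells with a Plod2 read was 31.7% in WT (22.9% to 41.6%) and 46.4% in Mkx-/- (36.2% to 56.8%), and 22.3% and 39.8% after thinning. TC-like cells held the lowest Plod2 level in WT and the highest in Mkx-/- mice. As TC-like over TPC-like, the log2 difference in WT was -1.24 (-1.49 to -0.99), and that in Mkx-/- cells was 1.10 (0.94 to 1.27). The typical background gene stood at -0.67 in WT and -0.43 in Mkx-/- cells.

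Plod1, the lysyl hydroxylase of the helix (chr4:147283862-147310876), was higher in Mkx-/- cells of every cluster. The log2 ratio was 1.42 (1.10 to 1.75) in TPC-like cells, where the level was 21.5 CPM in WT and 57.4 in Mkx-/-. Cluster 3 had a ratio of 0.82 (0.43 to 1.23) and TC-like cells one of 0.58 (0.44 to 0.72). In TC-like cells the share with a Plod1 read was close, at 70.3% and 71.6%, and with each cell weighted equally the ratio there was 0.08. In TPC-like cells that share was 23.1% in WT (15.4% to 32.4%) and 44.3% in Mkx-/- (34.2% to 54.8%).

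Plod3, which also adds sugars to hydroxylysine (chr5:137462889-137472518), was the most even of the 10 genes. Among WT clusters its lowest level was 79.7 CPM, in cluster 3, and its highest, in TC-like cells, had an interval of 100.1 to 116.4. Mkx-/- clusters lay between 82.8 and 109.98. The log2 ratio was -0.18 (-0.29 to -0.06) over all cells and -0.38 (-0.55 to -0.22) in TC-like cells. Plod3 shares 529 exon bases with Znhit1 on the opposite strand and 9 with the microRNA gene Mir702, and these reads too cannot be told apart.

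P4ha1 (chr10:58786044-58836052) encodes the widely used alpha subunit and followed Lox. Its level was 99.6 CPM in TPC-like WT cells (91.2 to 108.6) and 604 in TC-like WT cells (585 to 623), a log2 difference of 2.60 (2.47 to 2.73). TC-like Mkx-/- cells had 487 (471 to 504), a log2 ratio of -0.31 (-0.38 to -0.24), and their median cell had 431 CPM against 471 in WT. TPC-like cells had the other sign, with a log2 ratio of 0.33 (0.15 to 0.50).

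P4ha3, the third alpha subunit by name (chr7:107434030-107468209), was lowest in TC-like cells in WT and highest in cluster 3. Its level was 173.8 CPM in TPC-like cells, 259 in cluster 3 and 36.8 in TC-like cells (32.3 to 41.9). In TC-like Mkx-/- cells it was 163.2 (153.9 to 172.97), a log2 ratio of 2.15 (1.94 to 2.36) or 4.43-fold, which overlapped the interval of TPC-like WT cells. Values per cell in the TC-like cluster ran from 0 to 280 with a median of 8.65 in WT, and from 0 to 1871 with a median of 46.8 in Mkx-/-. A read was seen in 51.4% of WT (39.4% to 63.1%) and 67.9% of Mkx-/- TC-like cells (56.6% to 77.8%), shares whose intervals overlap. After thinning they were 33.8% and 55.6%. The difference was thus larger in level than in the share of cells with a read.

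P4ha2 (chr11:53913597-53945167), an alpha subunit best known from cartilage, remained low in TC-like cells of both genotypes. Its level there was 22.04 CPM in WT and 29.9 in Mkx-/- cells, and 37.5% of the Mkx-/- reads came from 1 cell. In TPC-like cells the levels were 134.8 in WT and 198.2 in Mkx-/-, with a log2 ratio of 0.56 (0.42 to 0.70), and the share of cells with a read was 33.7% (24.7% to 43.6%) and 56.7% (46.3% to 66.7%).

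**Figure D2:**
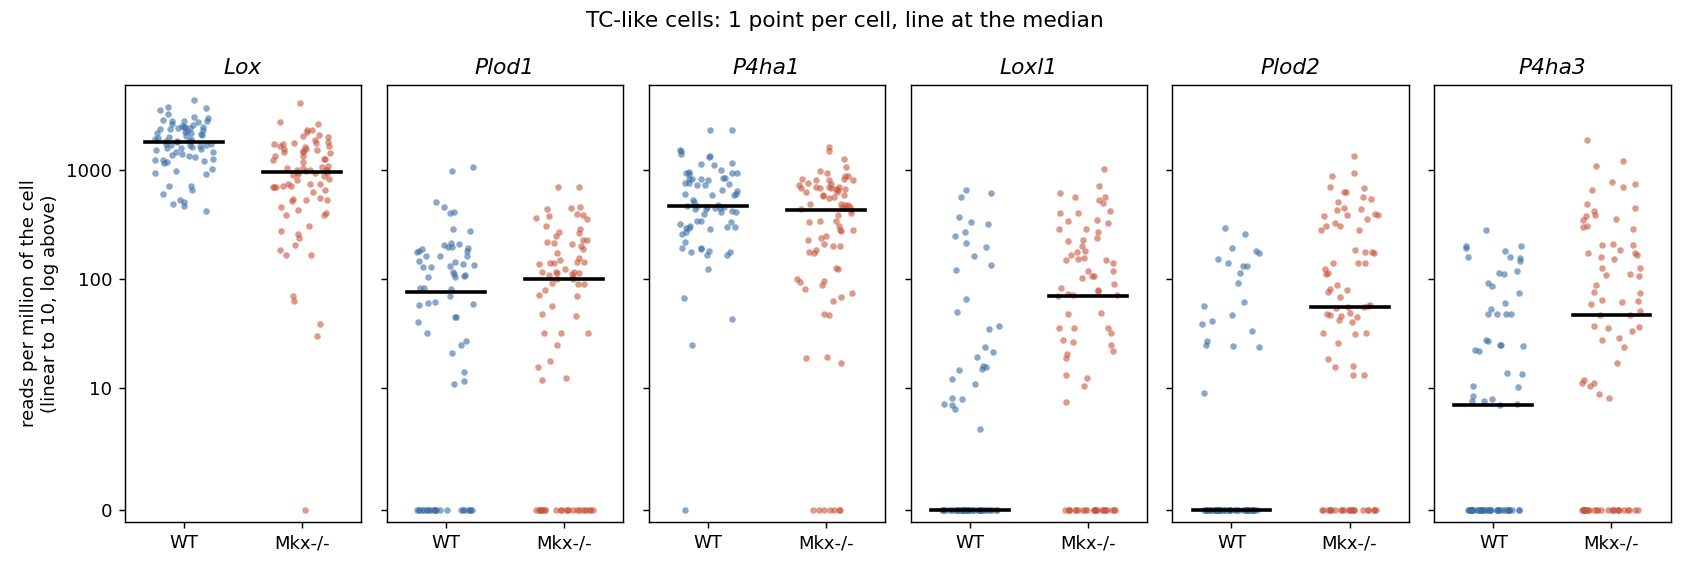
CPM of 6 enzyme genes in each TC-like cell (axis linear to 10, log above), with 1 point per cell and a line at the median, for 74 WT and 81 Mkx-/- cells. The median of Lox is 1811 in WT and 965 in Mkx-/- cells, while the medians of Loxl1 and Plod2 are 0 in WT and 69.9 and 55.7 in Mkx-/- cells.

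Taken over all cells, 4 of the 10 genes were over 1.5-fold higher in Mkx-/- than in WT, namely Loxl3, Plod1, Plod2 and P4ha3, where 16% of all 10963 genes with at least 100 reads were. Lox alone was over 1.5-fold lower, where 13.1% of all genes were. The largest ratio was that of Plod2, at 1.15 (1.03 to 1.28), followed by 0.78 (0.65 to 0.90) for Plod1 and 0.75 (0.67 to 0.84) for P4ha3. The ratio of Lox was -0.62 (-0.66 to -0.58), from 995 to 647 CPM. The median over the 10 genes was 0.16, and that over all genes was 0.05. The count of higher genes differed by setting: with each cell weighted equally it was 1, Plod2, with each cell thinned to 20000 reads it was 2, Plod1 and Plod2, and with equal weight per cluster it was 2.

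In TC-like cells 4 of 10 genes were over 1.5-fold higher (Loxl1, Loxl3, Plod2 and P4ha3) against 28% of all genes, and 1 was lower (Lox) against 13.2%. The median of all genes there was 0.21, and it was 0.03 when Col1a1, Col1a2 and Sparc were left out of the library size. On that scaling the ratios were 2.20 for Plod2 and -0.95 for Lox. In TPC-like cells 1 of the 9 genes with at least 100 reads was higher (Plod1) against 17.5% of all genes, and 0 were lower against 16%. In cluster 3, 1 of 9 was higher (Plod1) against 22.7%, and 2 were lower (Lox and P4ha2) against 18.8%. Loxl3, under that minimum in both, had 15 and 32 reads in TPC-like and 18 and 5 in cluster 3 cells. In the TC-like cluster, Plod2, P4ha3 and Loxl1 kept a ratio over 1.5-fold, and Lox one under it, in all 10 other settings tried. Of these, the limit of 100 reads per gene leaves such a ratio unchanged. TMM factors shift all genes by the same small amount, so these settings could hardly differ.

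**Figure D3:**
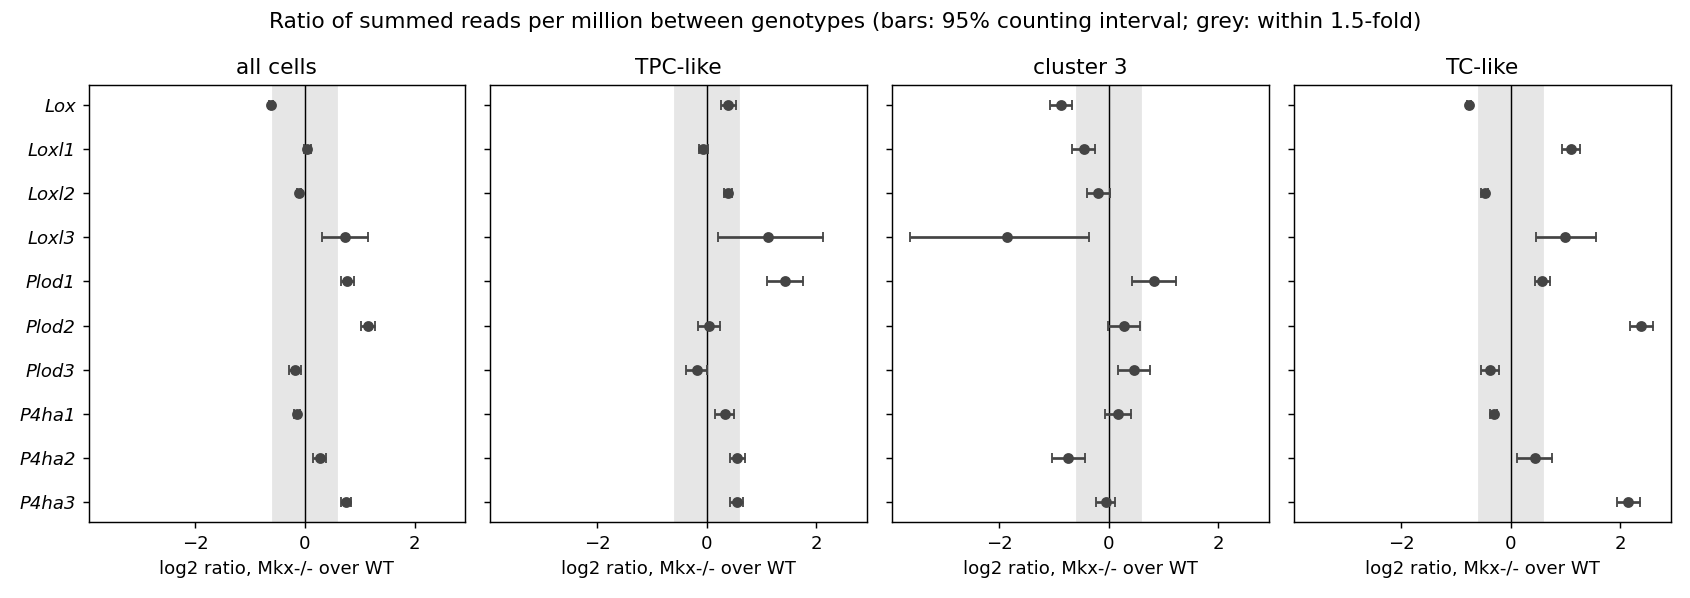
Log2 ratio of summed CPM, Mkx-/- over WT, for each enzyme gene over all cells and in each cluster, with exact 95% counting intervals. The grey band covers ratios within 1.5-fold, and in TC-like cells Plod2 at 2.38 and P4ha3 at 2.15 lie furthest from it.

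Markers moved with these differences in TC-like cells. The 6 tenocyte markers summed to 317850 CPM in WT and 227906 in Mkx-/- TC-like cells, the 5 progenitor markers to 4505 and 5446, and the 2 markers of cluster 3 to 748 and 1575. Tenocyte markers did not all go 1 way: Col1a1, Col1a2, Sparc (-0.38) and Col11a2 (-1.41) had log2 ratios below 0, and Tnmd (0.38) and Fmod (0.46) above 0. All 3 lists had every gene detected in both genotypes. Their part in the result was not tested. Markers of other cell types were mostly low: the 5 endothelial genes summed to 79.03 in WT and 11.1 in Mkx-/- TC-like cells, the 5 leukocyte genes to 83.8 and 10.2, the 5 mural genes to 193.3 and 182.9, the 5 erythroid genes to 4.41 and 1.72, and the 5 osteoblast genes to 13.4 and 5.60, with Ibsp, Sp7 and Dmp1 at 0 in both. The 5 chondrocyte genes summed to 576 and 405 (Col9a1 and Matn1 at 0). Among them the log2 ratio was 1.10 for Acan, -0.56 for Col2a1 and -0.68 for Sox9. The 5 osteoclast genes summed to 800 and 1375 (Mmp9 and Oscar at 0). Ctsk had a log2 ratio of 0.56, and Acp5 one of 6.82, from 11 and 1366 reads. The part of these too was not tested.

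Within a family, the mix of enzymes in TC-like cells differed between genotypes. Shares are of family reads per kilobase of exon, which puts genes of unlike length on 1 scale only if reads spread along the whole message. How reads spread is not given in the sources used here, so plain shares of family reads follow at the end. Plod2 made up 16.7% of the lysyl hydroxylase messages in WT TC-like cells and 49.9% in Mkx-/- ones, while Plod3 made up 50.8% and 22.3% and Plod1 32.5% and 27.8%. P4ha1 made up 90.4% and 66.96% of the prolyl 4-hydroxylase messages, and P4ha3 7.46% and 30.3%. Among lysyl oxidases, Lox made up 71.3% and 62.1%, Loxl2 25.1% and 26.7%, and Loxl1 3.29% and 10.4%. In TPC-like cells the mix was closer in both genotypes for the prolyl 4-hydroxylases, where P4ha3 made up 55.5% and 57.2%, while Loxl1 made up 55.2% and 47.3% of the lysyl oxidase messages. Plain shares of family reads in WT and Mkx-/- TC-like cells were 13.4% and 41.9% for Plod2, 42.3% and 37.8% for Plod1, and 5.56% and 24% for P4ha3. In TPC-like cells they were 42.6% and 43.9% for P4ha3, 44.2% and 36.6% for Loxl1, and 44.1% and 49.97% for Loxl2.

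**Figure D4:**
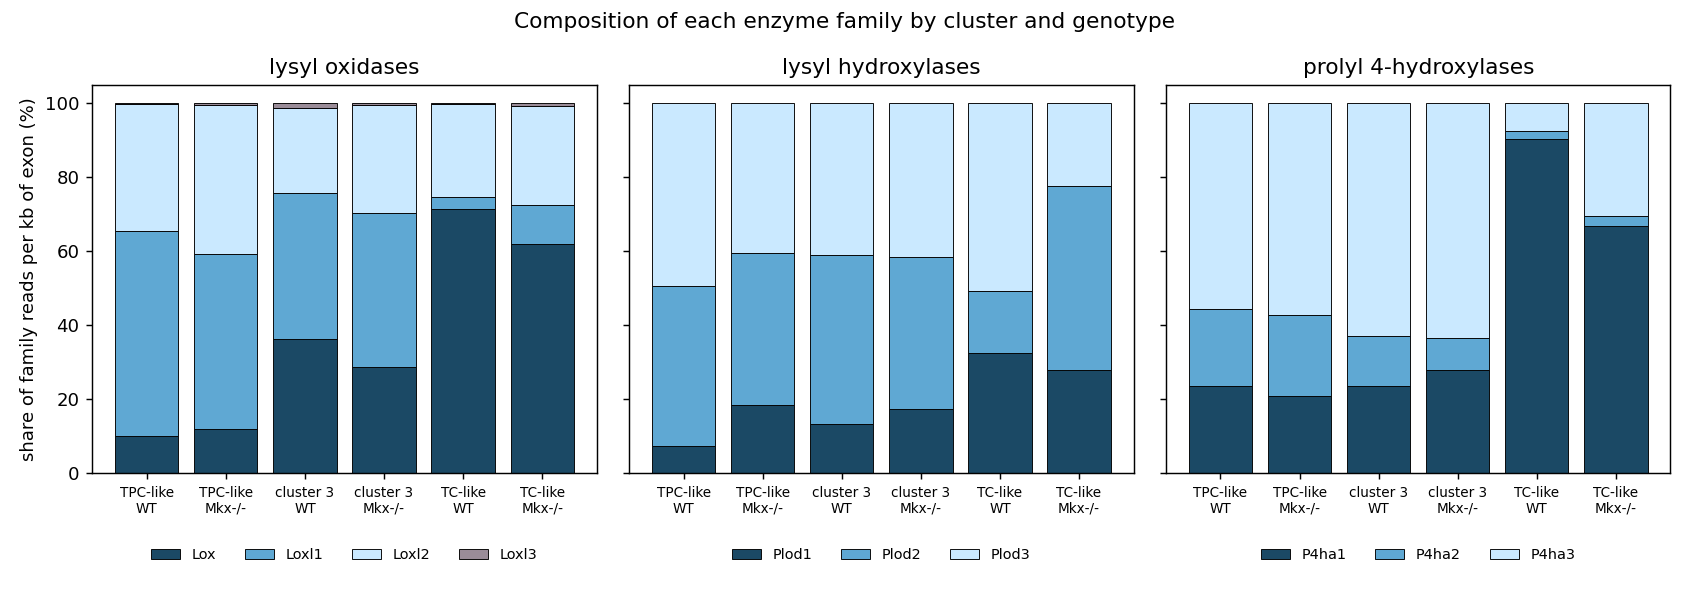
Share of each gene in the reads per kilobase of exon of its enzyme family, in percent, for the 3 clusters and both genotypes. The bars of TC-like cells show Plod2 at 16.7% in WT and 49.9% in Mkx-/- cells, and P4ha3 at 7.46% and 30.3%.

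Enzyme messages were also set against those of their substrate. A set of 6 fibrillar collagen genes (Col1a1, Col1a2, Col3a1, Col5a1, Col5a2 and Col11a1) summed to 142373 CPM in WT against 112277 in Mkx-/- cells (log2 ratio -0.34). Most of these reads were of Col1a1 and Col1a2, at 760128 and 1089867 in WT, against 59786 for Col3a1. Per 1000 fibrillar collagen reads the 10 enzymes had 18.4 reads in WT against 21.5 in Mkx-/- cells (log2 ratio 0.22), although the summed level of the enzymes was lower in Mkx-/- cells (log2 ratio -0.12). TPC-like cells had a log2 ratio per collagen read of 0.05. Lysyl hydroxylases had the largest ratio, from 1.54 to 2.87 (log2 0.90), and in TC-like cells from 0.899 to 2.13. Over all cells prolyl 4-hydroxylases had a log2 ratio of 0.51 and lysyl oxidases one of 0.01. In the TC-like cluster prolyl 4-hydroxylases had 2.44 and 3.55 per 1000, and lysyl oxidases 10.2 and 9.61. In cluster 3 the 10 enzymes together went the other way, at 43.5 and 30.9.

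Single collagens did not move as 1 group. In TC-like cells Col1a1 had a log2 ratio of -0.46 and Col1a2 one of -0.58, while Col3a1 had 0.86, Col5a1 2.00 and Col5a2 1.31. Col5a1 and Col5a2 encode chains of type V collagen, which regulates fibril diameter. The ratio of Col11a1 was -0.01.

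Across cells, Lox and P4ha1 followed Col1a1 most closely. The Spearman correlation of CPM over 227 WT cells was 0.70 for Lox, 0.55 for P4ha1, 0.46 for Loxl2 and 0.34 for Plod1, and it was -0.28 for both Loxl1 and P4ha3. Over 224 Mkx-/- cells the values were 0.66, 0.44, 0.06 and 0.24, and -0.31 and -0.14. The lowest value in Mkx-/- cells was that of P4ha2, -0.35, against -0.11 in WT. The value of Loxl2 was thus near 0 in Mkx-/- cells, and that of Plod2 was -0.05 in WT and 0.24 in Mkx-/-. The median over the 10 genes was 0.11 in WT and 0.13 in Mkx-/- cells, against -0.05 and -0.02 over 5124 genes seen in at least 20% of cells. Cells share depth and cluster, so these values are descriptions. Thinning each cell to 20000 reads left Lox at 0.70 and 0.64.

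Within the TC-like cluster the values of Lox and P4ha1 were smaller. Within TC-like cells the correlation with Col1a1 was 0.32 in WT and 0.37 in Mkx-/- cells for Lox, 0.31 and 0.24 for Loxl2, and 0.17 and 0.03 for P4ha1. Loxl2 in Mkx-/- cells was thus further from 0 than over all cells, and so was P4ha3, which had -0.08 in WT and -0.35 in Mkx-/- TC-like cells. In the same Mkx-/- cells P4ha3 had positive values with Col3a1 (0.33) and Col5a1 (0.31), and in WT 0.08 and 0.14. Loxl1 had its highest values in WT TC-like cells, 0.53 with Col3a1 and 0.50 with Col5a1. Plod2 was near 0 with all 6 collagens in Mkx-/- TC-like cells, from -0.07 to 0.15. Over the same 5124 genes as above, the median correlation with Col1a1 within TC-like cells was -0.12 in WT and -0.09 in Mkx-/-. A value near 0 there thus lies above that of the median gene.

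**Figure D5:**
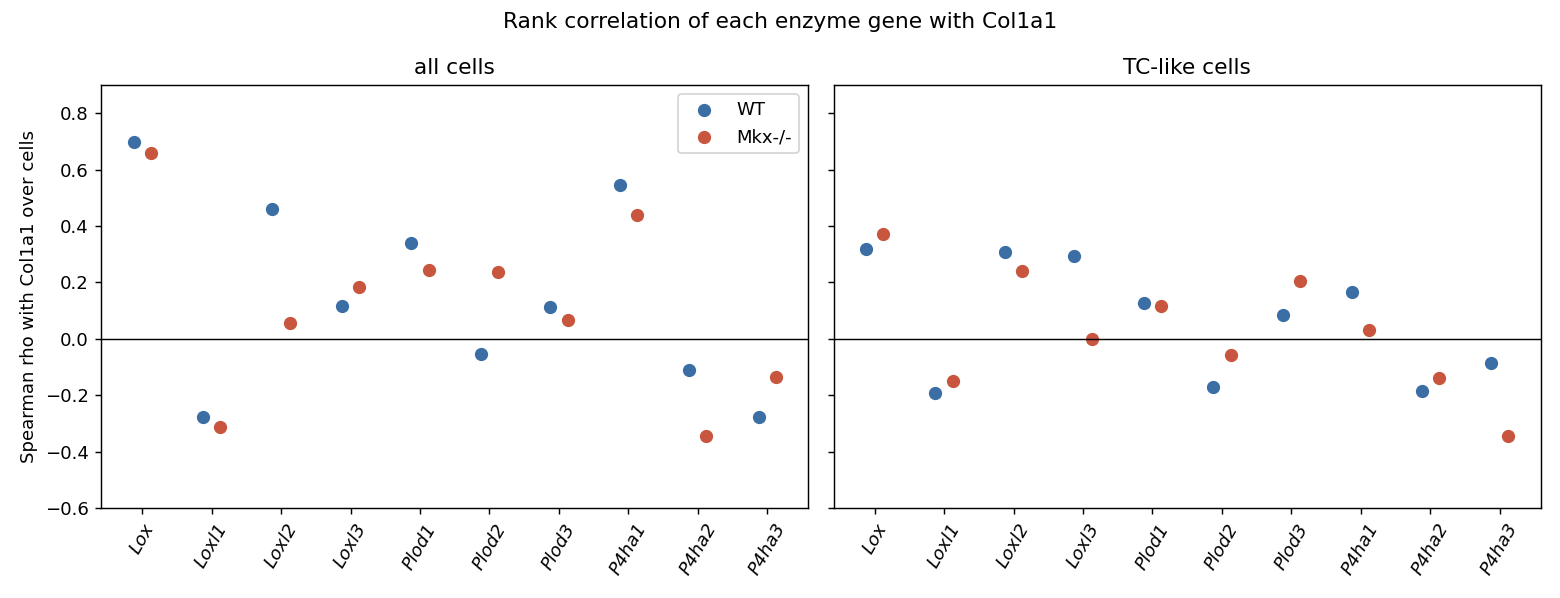
Spearman correlation of each enzyme gene with Col1a1 over all cells (left) and over TC-like cells (right), for WT (blue) and Mkx-/- (red). Lox lies at 0.70 and 0.66 over all cells and at 0.32 and 0.37 over TC-like cells, while P4ha3 in Mkx-/- cells moves from -0.14 to -0.35.

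Genes most like each member were found by the Pearson correlation of ln(1 + reads per 10000) over all 451 cells, among genes seen in at least 20% of them. Lox was closest to Col1a2 (0.78), Fmod (0.75) and 1500015O10Rik (0.75), and P4ha1 to 1500015O10Rik (0.62), Col1a2 (0.59) and Sparc (0.57). Plod1 was closest to Fmod (0.36), Col1a2 and Col6a3, and Loxl2 to Sparc (0.38), Col11a2 and Adamts2. Loxl1 was closest to Fbn1 (0.51), which encodes the microfibril protein fibrillin-1, then Fstl1 (0.51) and Axl (0.48). P4ha2 had Emilin2 (0.31), Cd34 (0.30) and Fbn1 (0.28), and P4ha3 had Col3a1 (0.26), Bgn (0.25) and Ly6a (0.24). Plod2 (Top1, Rbpj and Thbs2) and Plod3 (Ckap4, Ubxn7 and Rusc2) had no value above 0.24. Loxl3 was seen in too few cells. Among the 10 genes themselves the closest pair was Lox and P4ha1, at 0.50. All these values pool the clusters and both genotypes. Within TC-like cells the Spearman correlation of Lox and P4ha1 was 0.13 in WT and -0.002 in Mkx-/-.

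Cells carried several of these enzymes at once. The median cell had a read of 5 of the 10 genes in WT and of 6 in Mkx-/- mice, and the means after thinning were 4.71 and 5.36. In TC-like cells the thinned means were 5.15 and 5.79.

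Partners of the enzymes were mostly level between genotypes. Of 27 listed genes, 26 had enough reads for a ratio, with a median log2 ratio of 0.02, and P3h2 had 3 and 0 reads. Of the 23 with at least 100 reads, 2 were over 1.5-fold higher and 2 lower, against 16% and 13.1% of all genes. With the less read genes included, higher in Mkx-/- cells were Colgalt1 (0.76), which adds galactose to hydroxylysine, Fn1 (1.10), the fibronectin that Lox binds, and Tmem38b (1.87, from 5 and 19 reads). Lower were Loxl4 (-1.35), Adamts2 (-0.60), the procollagen N-proteinase, and Tll1 (-1.05, from 64 and 32 reads). P4hb, the beta subunit shared by the prolyl 4-hydroxylases, had -0.22, the chaperone Serpinh1 had -0.07, and Fkbp10, a folding partner of Plod2, had -0.34. In TC-like cells the median was -0.06, and of 20 with at least 100 reads 4 were higher and 3 lower, against 28% and 13.2% of all genes. Without that minimum 8 partners were higher, namely Colgalt1 (0.72), Fn1 (1.20), Postn (1.88), the procollagen proteinases Adamts3 (1.04), Adamts14 (3.72, 2.29 to 5.65, from 4 and 58 reads) and Tll1 (6 and 15 reads), the copper pump Atp7a (0.81) and Tmem38b (0 and 12 reads). The 3 lower were Loxl4 (-1.70), Adamts2 (-0.93) and P3h4 (-0.62), whose product forms a complex with lysyl hydroxylase 1.

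P4ha1, P4ha2 and Plod2 are known targets of hypoxia-inducible factor, so 9 other such targets were counted. Over all cells 0 of 9 were over 1.5-fold higher in Mkx-/- and 3 were lower, Bnip3 (75 and 45 reads), Egln3 (53 and 17) and Ankrd37 (28 and 3), each with few reads. Of the 7 with at least 100 reads, 0 were higher and 1 lower, against 16% and 13.1% of all genes. The median log2 ratio of the 9 was -0.24. In TC-like cells Adm was higher, at 1.26, and 3 were lower, Bnip3 (16 and 9 reads), Egln3 (27 and 0) and Ankrd37 (5 and 2), with a median of -0.09. Of the 6 with at least 100 reads there, 1 was higher and 0 lower, against 28% and 13.2%. Hif1a itself had a log2 ratio of 0.36 over all cells and 0.58 (0.47 to 0.69) in TC-like cells. It had 0.60 in cluster 3 and -0.08 in TPC-like cells. The part of hypoxia in the result was not tested.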

How the data were processed

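Single tail tendon cells of WT and Mkx-/- mice were profiled on a Fluidigm C1 chip with Nextera XT libraries. The deposited table holds raw read counts per gene symbol and cell, made by the authors, who trimmed reads with AfterQC and NGSQCToolkit, aligned them with Bowtie2 and counted them with featureCounts. Their methods name mm9 and the submitters' processing notes name mm10. Gene positions are given on mm9, promoters on GRCm38.p6. The strand setting, the treatment of reads with several matches and tool versions are not given in the sources used here. Bowtie2 does not splice reads, so reads across exon joins can be lost, and 37 mitochondrial symbols had 0 reads. Wells without exactly 1 cell had been left out before deposit, per the labels, and no doublet caller was run.

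The members and lists were chosen with earlier results of these data known. Cells were grouped by genotype from the labels. Genes in at least 3 cells were kept for clustering in Seurat 5.3.0: 1000 variable genes per genotype, merged, anchors by canonical correlation, 4 dimensions and a resolution of 0.4. Clusters were named from fixed marker lists and may differ from those of the study, and a genotype counts as 1 sample. Reads were summed per genotype and cluster and divided by summed totals. Levels have exact Poisson intervals, ratios exact conditional binomial intervals and shares Clopper-Pearson intervals, all at 95%. No test was run. Genes with at least 100 reads form the background, and 1.5-fold in either direction is the size at which a gene is counted. A ratio against 0 reads used a floor of 3 reads. For thinned values each cell was drawn down to 20000 reads, which left out 2 WT and 5 Mkx-/- cells. No pair of cells had identical counts. All 10 genes are named, with Mkx, the fibrillar collagens, partners and hypoxia targets past 1.5-fold, and the 3 genes most like each member seen in at least 20% of cells. P4hb, Serpinh1, Fkbp10, Hif1a and the single tenocyte, mural, chondrocyte and osteoclast markers were named after their values were seen. So were the single collagen pairs and the pair of Lox and P4ha1 within TC-like cells. Scripts were checked on simulated counts. Alternatives were equal weight per cell or cluster, TMM factors (edgeR 4.0.16), other library sizes, depth and gene-number limits, leading cells left out and other clusterings.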

Additional observations from a re-analysis of the deposited data

Results flagged for a closer look

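Lox, Loxl2 and P4ha1 had ratios of opposite sign in TPC-like and TC-like cells, and neither counting interval held 0. The log2 ratio of Mkx-/- to WT in TPC-like and TC-like cells was 0.39 and -0.77 for Lox, 0.39 and -0.48 for Loxl2, and 0.33 and -0.31 for P4ha1. These are 3 of 10 genes, where 19.4% of all genes with at least 100 reads did the same, and the difference between clusters was not tested, since each genotype is 1 sample. The TPC-like value of Lox was 0.13 without the leading cell of each genotype, and those of Loxl2 and P4ha1 were 0.37 and 0.31.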

How the results depend on the processing

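Of the 12 summaries, 12 values under other settings moved beyond their limit. The rest did not. For counts the limit was 1.5 times the count, and for the ratio per collagen read it was the counting interval. For a median log2 ratio it ran from the median lower bound of the genes to their median upper bound. That band is not a counting interval of the median. For the medians of the correlation with Col1a1 the limit was instead a Fisher interval with cells as units, which is not counting error. In Mkx-/- cells that median was 0.13 over all cells, and 0.04, 0.02 and 0.02 within TPC-like, cluster 3 and TC-like cells. In WT it was 0.11, and 0.06, 0.09 and 0.10, so values counted as unmoved include these. The number of genes over 1.5-fold higher over all cells was 4, and it was 1 with each cell weighted equally, 2 after thinning to 20000 reads, 2 with equal weight per cluster and 1 at a fold of 2. The number lower was 1, and it was 0 after thinning and 0 at a fold of 2. The median log2 ratio of the 10 genes over all cells was 0.056 with equal weight per cluster. The median in cluster 3 was -0.40 over cells with at least 2500 genes, and that in TC-like cells was 0.10 after thinning. The log2 ratio per fibrillar collagen read was 0.20 with each cell weighted equally, 0.19 after thinning and 0.30 over cells under 5000 genes. TMM factors and the library size without Col1a1, Col1a2 and Sparc cancel in this ratio, so they could not move it. The cause of these moves was not tested. For single genes 305 of 388 values stayed within their counting interval, and 0 past 1.5-fold changed sign. The clusters built without the listed and differing genes gave a TC-like median of 0.51. No paired analysis was possible because each genotype is 1 sample and the cell numbers in the labels pair nothing. For the same reason no replicate could be left out. Loxl3, with 75 reads in WT, is limited by depth.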
